A study of Homo sapiens with 4 samples.

Results

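The strongest core promoters were 1570 ATAC-seq peaks of Kasumi-1 cells, selected on 2 conditions. The peak had to lie within 1 kb of an annotated transcription start site, and its mean level had to be 9 or more on the log2 scale, which is 512 normalised reads. The level comes from one of 2 comparison tables that the authors deposited, called the annotated table here because it carries the annotation of each peak. The other compares the knockout and control libraries numbered 2 and is called the replicate 2 table. The labels do not say what this number stands for, so replicate is only a name here. The strongest core promoters made up 14.7% of the 10701 core promoter peaks of the annotated table and 7.64% of all its 20556 peaks. They belonged to 1549 of the 9660 genes with a core promoter peak (16.0%), and 18 genes had more than 1. ATAC-seq uses a transposase that cuts open chromatin and inserts sequencing adapters there, so the number of reads at a site reflects how accessible it is. Because the mean level chose these promoters, their levels and fold changes in the annotated table are given as a description.

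Kasumi-1 is an acute myeloid leukaemia line with the t(8;21) translocation, which fuses RUNX1 to RUNX1T1. The 4 libraries fell into 2 groups of 2. One group carried a knockout of SETD8 made with CRISPR/Cas9, and the other, labelled sgNT, had the wild-type genotype. SETD8, now called KMT5A, places a single methyl group on lysine 20 of histone H4. It is not stated whether the libraries came from separate cultures, whether the knockout cells were a pool or a clone, or how long after editing they were taken. Of the 10 myeloid and progenitor markers checked, 8 had a core promoter peak (KIT, LYL1, RUNX1, CEBPA, LMO2, SPI1, CD34 and MYB), and KIT and LYL1 were among the strongest. No T cell marker of 6 and no erythroid marker of 6 had one. B cell markers had one for 2 of 5 (CD22 and CD79A, levels 6.50 to 6.85) and fibroblast and epithelial markers for 2 of 8 (COL1A1 and EPCAM, levels 7.29 to 7.52), all below the cut at 9.

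A core promoter is the stretch around a transcription start where RNA polymerase II and its general factors assemble. At active CpG-island promoters it is kept free of nucleosomes, with help from factors such as SP1, which binds GC boxes, NF-Y, which binds CCAAT boxes, and ETS proteins. NF-Y has histone-like subunits, bends DNA and is known for opening promoters of histone, chaperone and cell cycle genes. To show what such a promoter looks like, the 250 bases before the start site are printed for strong promoters with several CCAAT boxes, for chaperone and histone promoters with them, and for 2 of the strongest without any. The sequences are from RefSeq, build GRCh38.p14, read 5′ to 3′ on the strand of the gene. Capitals mark CCAAT on that strand or ATTGG, which is CCAAT on the other strand.

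KAT6B, which encodes a histone acetyltransferase, KHSRP, a splicing and RNA decay factor, and MAP3K3, a signalling kinase, are the 3 strongest protein-coding promoters with at least 3 boxes in this stretch.
KAT6B, chr10:74826350-74826599, plus strand: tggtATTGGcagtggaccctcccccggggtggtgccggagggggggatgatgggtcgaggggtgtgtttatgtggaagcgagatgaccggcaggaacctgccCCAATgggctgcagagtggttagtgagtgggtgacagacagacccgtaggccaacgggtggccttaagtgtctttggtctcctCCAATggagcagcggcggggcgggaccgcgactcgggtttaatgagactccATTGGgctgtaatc
KHSRP, chr19:6424812-6425061, minus strand: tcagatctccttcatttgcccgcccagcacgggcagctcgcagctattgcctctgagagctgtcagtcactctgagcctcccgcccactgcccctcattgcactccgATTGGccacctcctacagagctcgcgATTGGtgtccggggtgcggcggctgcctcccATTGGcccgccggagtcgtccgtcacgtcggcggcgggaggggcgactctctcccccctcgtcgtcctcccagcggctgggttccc
MAP3K3, chr17:63622167-63622416, plus strand: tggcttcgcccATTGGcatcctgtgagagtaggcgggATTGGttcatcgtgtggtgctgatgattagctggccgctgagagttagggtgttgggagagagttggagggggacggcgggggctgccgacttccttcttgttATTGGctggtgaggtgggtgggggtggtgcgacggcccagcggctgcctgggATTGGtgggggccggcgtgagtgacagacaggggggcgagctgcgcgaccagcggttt
HSPA8 and HSPA1B encode a constitutive and a heat-inducible chaperone of the HSP70 family, and H2AC11 a replication-dependent histone H2A.
HSPA8, chr11:123062137-123062386, minus strand: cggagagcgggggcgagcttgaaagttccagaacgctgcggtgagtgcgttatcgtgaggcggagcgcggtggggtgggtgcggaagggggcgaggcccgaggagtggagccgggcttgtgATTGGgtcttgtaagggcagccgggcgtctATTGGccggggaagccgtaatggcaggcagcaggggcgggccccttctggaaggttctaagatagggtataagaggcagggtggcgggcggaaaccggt
HSPA1B, chr6:31827488-31827737, plus strand: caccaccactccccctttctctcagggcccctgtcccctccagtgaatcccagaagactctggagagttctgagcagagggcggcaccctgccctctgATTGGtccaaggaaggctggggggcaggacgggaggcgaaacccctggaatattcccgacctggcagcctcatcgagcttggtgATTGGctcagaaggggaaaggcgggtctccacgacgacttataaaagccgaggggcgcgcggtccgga
H2AC11, chr6:27132793-27133042, plus strand: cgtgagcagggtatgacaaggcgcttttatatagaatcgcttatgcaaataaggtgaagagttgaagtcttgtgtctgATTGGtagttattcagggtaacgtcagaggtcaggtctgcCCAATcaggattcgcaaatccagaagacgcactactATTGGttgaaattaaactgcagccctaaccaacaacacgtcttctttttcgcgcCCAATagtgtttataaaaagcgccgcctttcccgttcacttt
NDUFA11, a respiratory complex I subunit, and ZNF131, a zinc finger transcription factor, are the 2 strongest with no box in the window.
NDUFA11, chr19:5903791-5904040, minus strand: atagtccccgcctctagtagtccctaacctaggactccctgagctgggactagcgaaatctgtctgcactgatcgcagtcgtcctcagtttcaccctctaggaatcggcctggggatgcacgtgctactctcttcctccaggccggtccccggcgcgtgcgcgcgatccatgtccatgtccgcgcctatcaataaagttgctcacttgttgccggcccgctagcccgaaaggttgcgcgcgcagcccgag
ZNF131, chr5:43121211-43121460, plus strand: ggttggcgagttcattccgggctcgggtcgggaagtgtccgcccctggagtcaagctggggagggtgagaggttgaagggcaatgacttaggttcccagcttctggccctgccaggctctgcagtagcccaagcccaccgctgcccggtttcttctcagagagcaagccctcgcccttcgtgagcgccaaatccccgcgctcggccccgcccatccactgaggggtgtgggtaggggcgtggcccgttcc

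The printed promoters were each picked for a high level, so their levels do not compare promoters with boxes and those without. KAT6B, with 4 boxes printed, had a mean level of 11.47 in the annotated table, and its replicate 2 levels were 10.04 in the knockout library and 11.29 in the control. KHSRP, with 3, had a mean level of 10.98 and replicate 2 levels of 9.29 and 10.74. MAP3K3, with 4, stood at 10.94 and at 9.08 and 10.83 in the same order. NDUFA11, without a box, had 11.45, with 9.83 in the knockout and 11.01 in the control library. ZNF131 had 11.09, with 9.60 and 10.84. In each of these promoters the knockout library was the lower of the pair, as it was in 13393 of all 13577 replicate 2 peaks.

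Over all members, CCAAT was the motif that went with strength most. A RefSeq window of 250 bases before to 50 after a start overlapped 1301 members (82.9%), for 1204 a window of the annotated gene and for 97 one of another gene. The comparison set was the next weaker core promoters, with levels of 8 to 9. On the chromosomes that the sequence table covers, 83.2% of these had a window, beside 86.9% of the 1497 members there. Below a level of 8 no more than 75.2% had one, and a comparison there is void. CCAAT on either strand was found in 695 member windows (53.4%), in 41.6% of the 2479 windows of level 8 to 9 and in 34.6% of the 34943 RefSeq windows. Its share went up with the level, from 39.3% at levels of 8 to 8.5 and 44.6% at 8.5 to 9 to 51.0% at 9 to 9.5, 193 of 364 windows at 9.5 to 10 and 62.4% at 10 and above. Among windows at a level of 8 or more, the share that were members was 29.5% of those with no box, 34.7% with 1 box, 39.7% with 2 and 55.1% with 3 or more. The level defines the members, so these shares describe the set and are not a test. A match is a short run of letters and does not show that a factor was bound.

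**Figure D1:**
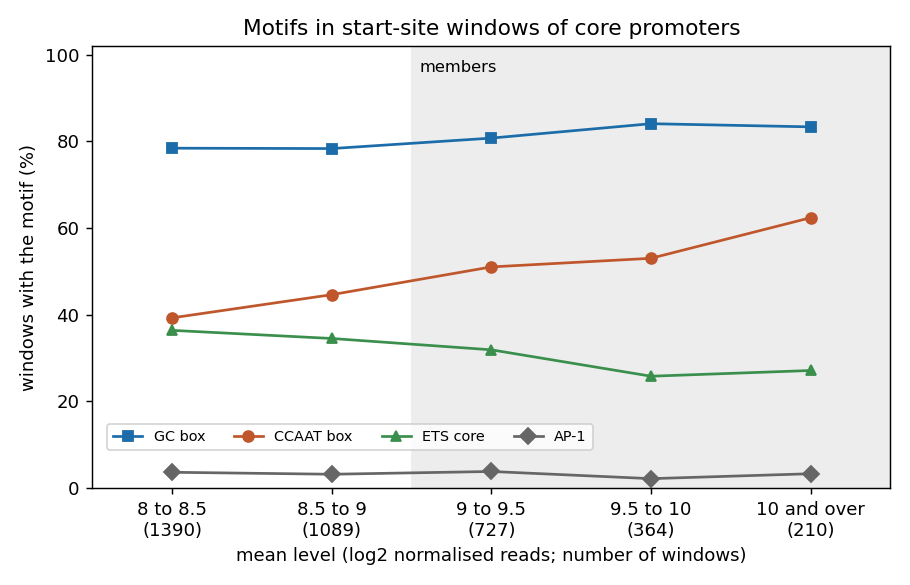
Share of start-site windows (y axis, %) that hold a GC box, CCAAT box, ETS core or AP-1 motif on either strand, by mean level of the core promoter (x axis, log2 normalised reads, with the number of windows). The CCAAT share goes from 39.3% to 62.4% over the 5 bands, and the ETS share goes from 36.4% to 27.1%.

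The boxes of the members reached further upstream than those of the comparison set. Of 1401 matches in member windows, 28.7% began between 100 and 50 bases before the start and 22.8% between 150 and 100, against 35.8% and 19.1% of the 1710 matches at levels of 8 to 9. Further out, the bins from 250 to 200 and from 200 to 150 bases before the start held 15.5% and 17.4% of the member matches and 12.2% and 14.2% of the others. Up to 7 boxes were found in 1 window, and 195 member windows held 3 or more. TOMM40, which encodes the channel of the mitochondrial outer membrane import complex, had 5, and SLC25A42, a mitochondrial carrier of coenzyme A, had 6.

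The GC box GGGCGG was found in 82.1% of member windows, 78.4% of those of level 8 to 9 and 44.9% of all RefSeq windows. The ETS core CCGGAA went the other way, with 29.4%, 35.6% and 17.2%. Of the further motifs searched, each on both strands, the ZNF143 letters ACTACA were in 11.1% of member windows against 8.75% at levels of 8 to 9, the E-box CACGTG in 11.8% against 10.9%, and the YY1 core AAGATGG in 7.99% against 7.83%. The NRF1 letters GCGCATG were in 7.99% against 9.72%, the RUNX letters TGTGGT in 7.84% against 8.87%, the AP-1 motif TGANTCA in 3.31% against 3.47%, and the TATA letters TATAAA in 4.46% against 4.28%. The CRE TGACGTCA was in 3.46% against 4.20%, and its first 6 letters TGACGT, which it contains, in 14.8% against 14.4%. Over all RefSeq windows, in the same order from ACTACA to TGACGT, the shares were 8.46%, 7.23%, 5.85%, 4.40%, 13.1%, 7.72%, 11.6%, 1.84% and 7.97%. Base composition did not separate the sets, with a median GC content of 66.7% and 28 CpG in both. A second start on the other strand, pointing away within 1 kb, was found for 421 member windows (32.4%), for 26.3% of those of level 8 to 9 and for 17.9% of RefSeq windows.

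Physically the strongest promoters were wide, and most covered their genes' annotated starts. Their median width was 953 bp, from 351 to 2705, against 712 bp in the 9131 weaker core promoters, where peak calling and level share the same reads. The peak covered the annotated start in 1516 (96.6%), against 88.3% of the weaker ones. By gene type, 1340 of the genes were protein coding (86.5%, against 87.2% of all genes with a core promoter peak) and 171 were long noncoding, of 962 such genes with a core promoter peak. The median member had 685 normalised reads in the annotated table, the median core promoter 228 and the median peak of any class 142. Around the cut at 9, the 209 members with levels of 9 to 9.1 had median fold changes of -0.94 in the authors' deposited annotated table and -1.32 in the authors' deposited replicate 2 table, and the 238 core promoters at 8.9 to 9 had -0.965 and -1.305. ANKRD12 and the read-through gene BORCS8-MEF2B, both at 9 to 2 decimals, were the last members ranked, and RPA3, a subunit of replication protein A, and ZNF627, both at 8.99, were the first core promoters left out.

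The promoter of KMT5A, the knocked-out gene, was itself a member, near the cut. Its peak at chr12:123383664-123384357 (hg38) had a mean level of 9.02, and the replicate 2 levels were 7.97 in the knockout and 9.42 in the control. An edit in the coding sequence need not change accessibility of the promoter, so this peak does not check the label. KMT5C, which adds further methyl groups at the same lysine, had one of the stronger promoters of the set, with 10.51 in the annotated table and 8.87 and 10.27 in the replicate 2 table. These were the 2 members among 8 genes of H4K20 methylation with a core promoter peak.

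A group of 5 members stood apart by their level and gave no value in the replicate 2 table. They lie where the nuclear genome carries copies of mitochondrial DNA. The annotation labelled 4 of them LOC101928626, and they cover the mitochondrial-like pseudogenes MTND1P23, MTND2P28, MTCO1P12, MTCO2P12, MTATP8P1, MTATP6P1 and MTCO3P12 on chromosome 1 between 629115 and 634886 (hg38). Their mean levels were 19.56, 19.99, 20.77 and 21.26, and they alone held 48.7% of the normalised reads of all peaks in the annotated table. The other, at MTRNR2L8, a humanin-like gene copy on chromosome 11, had 13.87. The next member was at 11.55. The fold changes of the chromosome 1 peaks were -0.53 to -0.57 in the authors' deposited annotated table, above its median of -0.87, and that of MTRNR2L8 was -0.79 in the authors' deposited annotated table. Whether reads of mitochondrial DNA were removed, or how reads with several matches were placed, was not given in the sources used here. Without these peaks 1565 members remained, and their median fold change in the authors' deposited annotated table was -0.93 as before.

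Apart from these, the highest annotated-table levels belonged to promoters of coding and noncoding genes of varied function. GSK3B, a kinase of WNT and insulin signalling, led with 11.55 at chr3:120093931-120095828, and its replicate 2 levels were 9.80 in the knockout library and 11.19 in the control. RIMOC1, a regulator of mitophagy, had a mean level of 11.39 and replicate 2 levels of 9.17 and 10.60. RELL1, a membrane protein gene, had 11.31, with 10.14 in the knockout and 11.24 in the control library. PDCD10, mutated in cerebral cavernous malformation, had 11.24, with 9.17 and 10.42. In each of these genes the control library was the higher one in the replicate 2 table, as it was in 13393 of all 13577 peaks there.

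LINC02018, LINC02021 and MASCRNA, noncoding genes of this top group, were far lower in the replicate 2 table. Whether the difference between the tables goes with gene type was not tested. LINC02018 had a mean level of 11.39 but replicate 2 levels of 6.66 in the knockout and 7.80 in the control, and the difference of the means, replicate 2 minus annotated table, was -4.05. LINC02021 was at 11.33 and at 7.48 and 8.61, a difference of -3.18. MASCRNA, the small RNA cut from the MALAT1 transcript, was at 11.32 and at 7.81 and 9.18, a difference of -2.67. Over the 1557 members with a replicate 2 peak, the median of this difference was -0.43, and 1440 (92.5%) were within 1 of the annotated-table level. Only 11 were lower by 2 or more, chosen here after their values were seen, and they also included LINC02614, LOC100132249, TSNARE1, HCN2 and SATB1. FAM86FP, FAM86C2P and EEF2KMT, 3 copies of a duplicated gene family, were among them, with differences of -3.16, -2.68 and -2.65. The tables were scaled separately, so a level set across them is only a rough guide.

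EEF1A1, the gene of translation elongation factor 1 alpha, was the one member far higher in the replicate 2 table. Its mean level was 9.77, and its replicate 2 levels were 15.12 in the knockout library and 15.06 in the control, a difference of 5.32, while the next highest was 0.87. This peak held 1.70% of all knockout reads in peaks and 0.696% of the control's. The replicate 2 peak, at chr6:73519982-73521297, shared 392 bp with the annotated table peak at chr6:73520906-73521840. It was the only member of 1557 whose fold change was above 0 in the authors' deposited replicate 2 table, at 0.07, and its value in the authors' deposited annotated table was -0.75. Of all 13577 replicate 2 peaks, 182 had a fold change above 0. EEF1A1 has many processed copies in the genome, and the part of reads from copies was not tested.

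Of the 1570 members, 1557 (99.2%) overlapped a replicate 2 peak by at least 1 bp, against 78.5% of the weaker core promoters. They met 1555 different peaks there. Besides the 5 mitochondrial-like peaks, the members without a partner were CCL3L1, a chemokine gene with near-identical copies, HEATR9, DNAJB13, TSPOAP1-AS1, GPX1, MIDN, FAAP100 and HIVEP2, named after their values were seen. Their mean levels were 9.03 to 10.14. Whether the libraries of the replicate 2 table also entered the annotated table is not stated, so the replicate 2 table is not counted here as an independent check of the choice.

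In the replicate 2 table the strong promoters again held the top of the range in both libraries. In the control library their levels ran from 7.16 to 15.06, with a median of 9.59 (quartiles 9.30 and 9.91), against 8.43 in the weaker core promoters. In the knockout library they ran from 5.86 to 15.12, with a median of 8.29 (quartiles 7.93 and 8.62), against 7.18. The upper 25% of all 13577 peaks held 1450 members by the control level (93.1%) and 1410 by the knockout level (90.6%). The knockout library had 2091370 reads in peaks and the control 5345010, and a member of median level rested on 313 and 840 reads. At that depth counting error alone spans 0.187 on either side of a member's fold change at 95%, and with 1 library per group there is no replicate check.

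**Figure D2:**
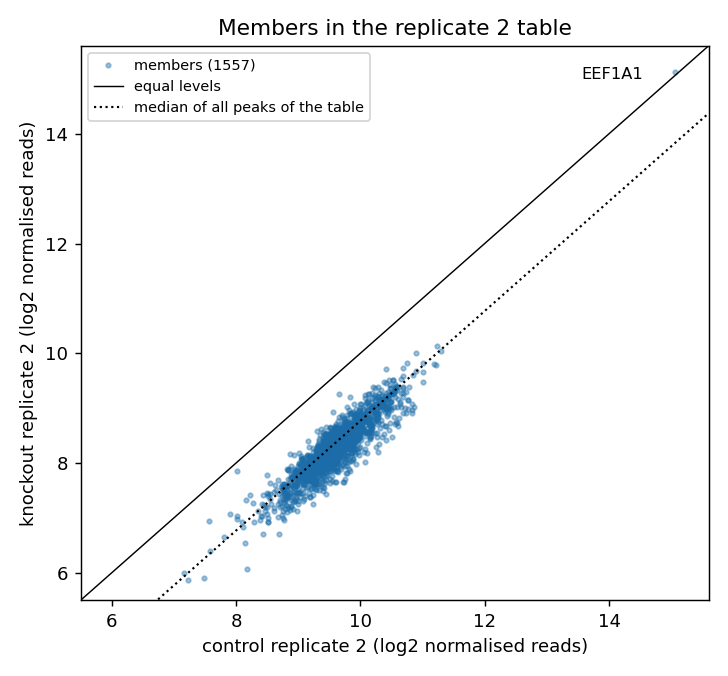
Levels of the 1557 members in the replicate 2 table, with the control library on the x axis and the knockout library on the y axis (both log2 normalised reads, 1 point per member), the line of equal levels and a dotted line at the median fold change of all peaks of the table, -1.23. All points but EEF1A1 lie below the line of equal levels.

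The median fold change at these promoters was below 0 in both tables, and the values were close together. The annotated table is labelled treated against control, and treated was read here as the knockout. The median fold change of the members in the authors' deposited annotated table was -0.93 (quartiles -1.10 and -0.77, SD 0.270), from -2.06 to -0.21. All 1570 were below 0 there, as were 18979 of all 20556 peaks. All core promoters had a median of -0.92 and all peaks one of -0.87 in the authors' deposited annotated table. There 641 members (40.8%) were lower by 1 or more and 0 higher by 1 or more, where 38.9% and 0.511% of all peaks were. In the authors' deposited replicate 2 table the median was -1.31 (quartiles -1.46 and -1.17, SD 0.238), beside -1.25 for all core promoters and -1.23 for all peaks. There 1457 of 1557 members (93.6%) were lower by 1 or more, where 76.1% of all peaks were, and 0 were higher by 1 or more, where 0.133% of all peaks were. The SD over all peaks was 0.549 in the annotated table and 0.394 in the replicate 2 table. The median over all peaks was thus nearly as low as that of the members. The replicate 2 levels carry the difference in reads in peaks between the libraries, since the 2091370 knockout reads were left as they were and the 5345010 control reads multiplied by 0.918. No label or header says what that factor was taken from, so sequencing depth and the share of reads in peaks cannot be told apart. Relative to each table's own median the members stood at -0.06 and -0.08, and 59.1% and 63.7% of them lay below it.

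No member reached an adjusted p under 0.05. The smallest adjusted p among members was 0.731 in the authors' deposited annotated table and 0.578 in the authors' deposited replicate 2 table, and the smallest unadjusted p was 0.0512 and 0.122. An adjusted p under 0.05 was reached by 0% of all peaks in both tables, and no member reached an unadjusted p under 0.05, where 1.6% of all peaks did in the authors' deposited annotated table and 0.14% in the authors' deposited replicate 2 table. The method behind these p-values was not given in the sources used here, and a p that misses the threshold does not show that a promoter was unchanged. The tables may share libraries, so their values are given side by side only.

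The fold change depended on the level differently in the 2 tables. The median in the authors' deposited annotated table went from -0.47 in core promoters with levels under 6, over -0.81, -0.95 and -0.99 in the bands up to 9, to -0.93 at 9 to 9.5, -0.93 at 9.5 to 10, -0.95 at 10 to 11 and -0.79 in the 17 members at 11 and above, 5 of which are the mitochondrial-like peaks. Without these 5 the last median was -0.865 in the authors' deposited annotated table. The same bands in the authors' deposited replicate 2 table had -1.07, -1.14, -1.23 and -1.27 below the cut, and -1.30, -1.32, -1.33 and -1.25 above it. Within the members the spread between quartiles was wider than the steps between bands.

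**Figure D3:**
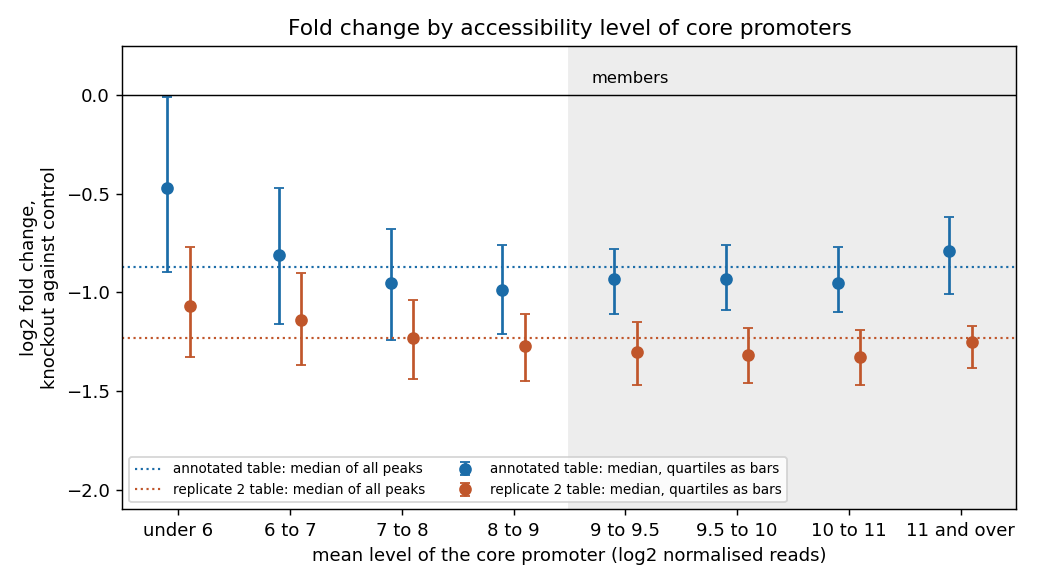
Median log2 fold change of knockout against control (y axis, bars are quartiles over peaks) for core promoters in bands of mean level (x axis), in both tables. Treated in the annotated table was read as the knockout. Dotted lines mark the median of all peaks of each table. The shaded bands are the members, whose medians lie between -0.95 and -0.79 in the annotated table and between -1.33 and -1.25 in the replicate 2 table.

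Promoters with more CCAAT boxes had lower replicate 2 fold changes, while the annotated table showed no such order over all members and higher values with more boxes in some subsets. In the authors' deposited replicate 2 table the median was -1.27 over 603 members with no box (quartiles -1.41 and -1.12), -1.32 over 310 with 1, -1.34 over 189 with 2 and -1.40 over 195 with 3 or more (quartiles -1.53 and -1.30). The quartile ranges overlapped. The medians in the authors' deposited annotated table were -0.95, -0.93, -0.90 and -0.93. Without chromosomes 2, 8, 9 and 17 the replicate 2 medians were -1.24, -1.28, -1.31 and -1.38 in the authors' deposited replicate 2 table. Core promoters of level 8 to 9 gave -1.25, -1.29, -1.34 and -1.42 for the same numbers of boxes in the authors' deposited replicate 2 table. The same subsets of the authors' deposited annotated table had -0.91, -0.90, -0.86 and -0.86 without those chromosomes and -1.01, -0.98, -1 and -0.87 at levels of 8 to 9. The level also went up with the number of boxes, from a median control level of 9.56 to 9.75 among members, and its part in this was not tested. Members with and without a second start within 1 kb had -1.32 and -1.31 in the authors' deposited replicate 2 table.

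Some gene groups had many of their genes in the set and others few. Each gene counted once, by its strongest core promoter peak, and 16.0% of all genes with such a peak were members. The lists were drawn up with earlier results of these data known and got no test. Chaperones, p53 pathway, immediate early, histone and chromatin regulator genes had the largest shares, and respiratory chain, ribosome biogenesis, mitochondrial ribosome and cytosolic ribosome genes were among the smallest.

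**Figure D4:**
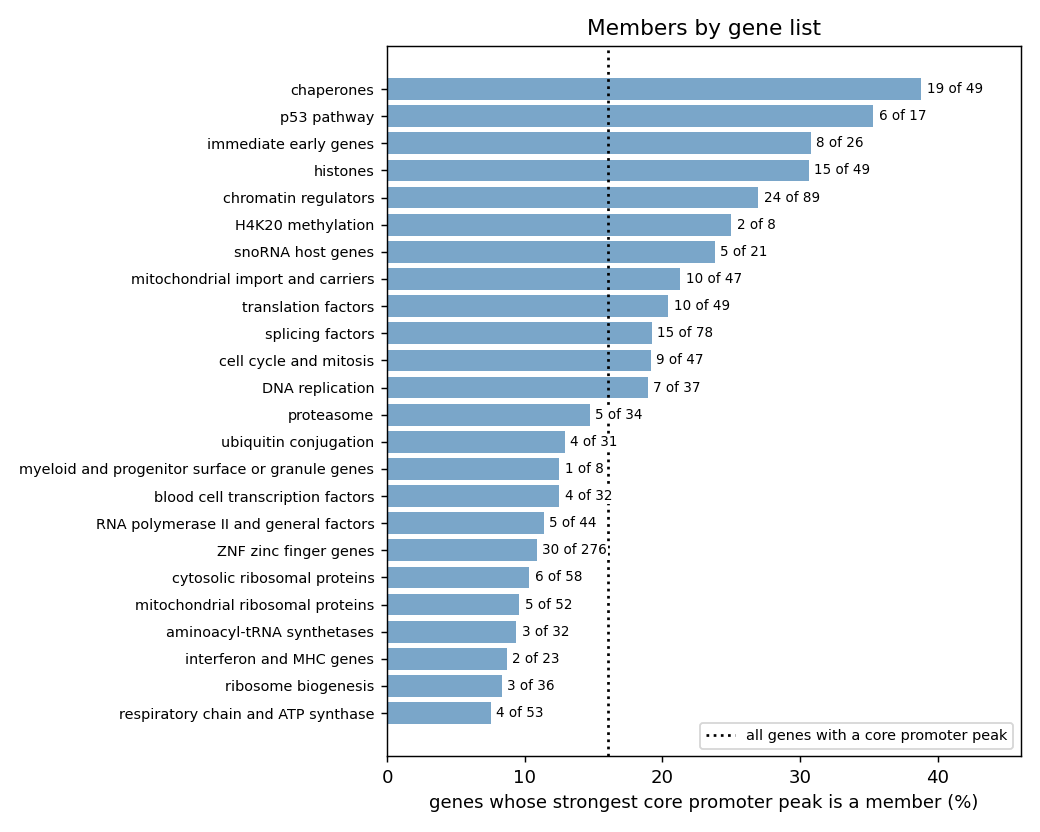
Share of the genes of each list whose strongest core promoter peak is a member (x axis, %; counts beside the bars), for lists with at least 8 genes with a core promoter peak, with a dotted line at the share over all genes, 16.0%. Chaperones stand at 38.8% and respiratory chain genes at 7.55%.

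Among chaperones, which fold new and damaged proteins, 19 of 49 genes were members (38.8%). HSPA8, the constitutive HSP70, had the highest mean level, 10.80, and replicate 2 levels of 9.35 in the knockout and 10.56 in the control library. DNAJC21, an HSP70 partner in ribosome maturation, had 10.50, with 9.17 and 10.34. HSPA1B, the heat-inducible HSP70, had 10.37, with 8.56 and 9.94, and HSPA1A beside it is nearly identical, so reads of the pair may be mixed. The members also included HSPA5 of the endoplasmic reticulum, HSP90AB1, DNAJB1, DNAJA1 and the chaperonin subunits CCT2 and CCT7. The group's median fold change was -1.01 over 19 in the authors' deposited annotated table (12 lower by 1 or more) and -1.23 over 18 in the authors' deposited replicate 2 table (17 lower by 1 or more), beside -0.93 and -1.31 over all member genes, of which 41.1% and 93.7% were lower by 1 or more. CCAAT was found in 7 of the 17 chaperone windows, a smaller share than the 53.4% of all member windows.

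Among histone genes 15 of 49 were members (30.6%), mainly replication-dependent H2A and H2B genes of the chromosome 6 cluster. H2AC11 had a mean level of 10.35 and replicate 2 levels of 8.61 and 10.01. H2BC4 was at 10.11, with 8.06 in the knockout and 9.42 in the control library, and H2AC8 at 9.88, with 8.43 and 9.92. The replacement histone genes H3-3B and H2AZ2 and the DNA damage histone gene H2AX were members as well. Of the 15 histone windows, 12 held CCAAT, beside 53.4% of all member windows, and the same number held at least 2 boxes. Their median fold change was -0.68 in the authors' deposited annotated table and -1.42 in the authors' deposited replicate 2 table. There were 2 lower by 1 or more in the authors' deposited annotated table, where 41.1% of all member genes were, and all 15 in the authors' deposited replicate 2 table, near the 93.7% of all member genes. They thus lay above the median of all member genes in the annotated table and below it in the replicate 2 table. H2AC8 was at -0.29 in the authors' deposited annotated table and -1.49 in the authors' deposited replicate 2 table.

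Chromatin regulators gave 24 members of 89 genes (27.0%). Besides KAT6B and KMT5C they included KMT2E, a reader of H3K4 methylation (mean level 10.41, replicate 2 levels 8.94 and 10.20), the acetyltransferases KAT5 and KAT7, the demethylases KDM3A, KDM4A, KDM4B and KDM2A, and the remodellers CHD1, CHD8 and SMARCA5. Their medians were -0.90 in the authors' deposited annotated table and -1.30 in the authors' deposited replicate 2 table. CCAAT was found in 14 of their 22 windows, beside 53.4% of all member windows.

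Immediate early genes, whose promoters stay poised for a fast response to signals, gave 8 members of 26 (30.8%). EGR1 had a mean level of 10.73, with 9.59 in the knockout and 10.68 in the control library of the replicate 2 table. EGR2 had 10.11, with 7.86 and 9.18, and JUN 9.78, with 8.96 and 10.38. KLF6, DUSP6, ATF3 and FOSL2 were also in. The medians were -1.06 in the authors' deposited annotated table and -1.30 in the authors' deposited replicate 2 table.

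The p53 pathway gave 6 of 17 genes (35.3%). SESN1, which restrains growth signalling under stress, was at 10.26 in the annotated table and at 8.78 and 10.10 in the replicate 2 table. FDXR, a mitochondrial electron donor, was at 9.82, with 8.68 in the knockout and 10.39 in the control, and TP53I3 at 9.49, with 7.85 and 9.53. GADD45A, DDB2 and PPM1D completed the group. Medians were -1.14 in the authors' deposited annotated table and -1.40 in the authors' deposited replicate 2 table, and FDXR and PPM1D lie on chromosome 17 and TP53I3 on chromosome 2, where members had lower fold changes than elsewhere.

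Genes of protein synthesis differed by list, from ribosome biogenesis, under the share of all genes, to translation factors, above it. Of 58 cytosolic ribosomal protein genes, 6 were members (10.3%), among them RPSA (mean level 9.48, replicate 2 levels 7.85 and 9.13), RPL39L (9.25, 7.71 and 8.84), RPL37, RPL23A and RPL27. Ribosome biogenesis gave 3 of 36 (8.33%), led by UTP18, a processome protein, at 10.19 with 8.42 in the knockout and 10.42 in the control library. Aminoacyl-tRNA synthetases gave 3 of 32 (9.38%), the threonine, asparagine and leucine enzymes TARS1, NARS1 and LARS1. Translation factors gave 10 of 49 (20.4%), with PABPC1, the poly(A)-binding protein gene, at 9.98 and EIF1, which acts in start codon choice, at 9.62 beside EEF1A1. The list medians of these 4 groups ran from -1.06 to -0.81 in the authors' deposited annotated table and from -1.36 to -1.22 in the authors' deposited replicate 2 table.

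Mitochondrial genes fell on both sides. Respiratory chain and ATP synthase genes gave 4 of 53 (7.55%), namely NDUFA11, ATP5MC1, ATP5F1B and CYCS. ATP5MC1, a subunit of the proton-conducting ring, was at 10.01, with 8.48 in the knockout and 10.35 in the control library, and ATP5F1B, the catalytic beta subunit, at 9.63, with 8.08 and 9.51. Mitochondrial ribosomal proteins gave 5 of 52 (9.62%), led by MRPL18 at 9.93. Import and carrier genes gave 10 of 47 (21.3%), with TOMM40 at 10.51 (replicate 2 levels 9.11 and 10.48). The list medians were -0.80, -1.03 and -0.87 in the authors' deposited annotated table, and in the authors' deposited replicate 2 table they were -1.44 for the respiratory chain, -1.5 for ribosomal proteins and -1.32 for import and carriers.

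Lists of RNA processing, replication, cell cycle and protein turnover genes ran from below to above the share of all genes. Splicing factors gave 15 of 78 (19.2%), led by HNRNPL at 10.55 (replicate 2 levels 9.20 and 10.55), SRSF2 at 10.08 (9.20 and 10.68) and PTBP1 at 9.98 (9.29 and 10.45). Of the 15 splicing factor windows 10 held CCAAT, beside 53.4% of all member windows. DNA replication gave 7 of 37 (18.9%), led by the helicase subunit MCM3 at 9.81 and the origin protein ORC6 at 9.72. Cell cycle genes gave 9 of 47 (19.1%), with the centromere protein CENPX at 10.44, the G1 kinase CDK4 at 10.09 and the S phase regulator E2F3 at 9.78. Small nucleolar RNA hosts gave 5 of 21 (23.8%), among them GAS5 at 9.60, SNHG10 at 9.26 and ZFAS1 at 9.23. Proteasome genes gave 5 of 34 (14.7%), ubiquitin genes and E2 enzymes 4 of 31 (12.9%) and RNA polymerase II and general factors 5 of 44 (11.4%). Over these 7 lists the medians ran from -1.11 to -0.89 in the authors' deposited annotated table and from -1.51 to -1.21 in the authors' deposited replicate 2 table.

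Among genes that mark blood cells, transcription factors gave 4 members of 32 genes (12.5%, near the 16.0% of all genes), which were LYL1, HHEX, ELF2 and MEF2D. LYL1, a leukaemia-linked partner of the LMO2 complex, was at 9.49 in the annotated table and at 8.18 and 9.33 in the replicate 2 table. HHEX, a haematopoietic homeobox gene, was at 9.41, with 8.67 in the knockout and 9.87 in the control library. KIT, the stem cell factor receptor, was the 1 member of 8 myeloid surface and granule genes, at 10.12, with 10.00 and 10.89. By fold change KIT was at -0.61 in the authors' deposited annotated table and -0.89 in the authors' deposited replicate 2 table. In the authors' deposited tables in that order, LYL1 had -0.42 and -1.15, MEF2D -0.45 and -1.13, HHEX -0.89 and -1.20, and ELF2 -1.05 and -1.14, so the annotated-table values lay on both sides of the members' median and the replicate 2 values above it. Interferon and MHC genes gave 2 of 23 (8.70%), STAT2 and ISG20, and ZNF zinc finger genes 30 of 276 (10.9%), led by ZNF131, ZNF558 at 10.16 and ZNF654 at 10.09.

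Members were unevenly spread over the chromosomes. Their share of core promoters was 21.5% on chromosome 18 (34 of 158), 20.8% on chromosome 3 (141 of 679) and 20.5% on chromosome 10 (85 of 414), against 14.7% in all. It was 3.60% on chromosome 20 (10 of 278), 5.46% on chromosome 22 (13 of 238), 5.99% on X (20 of 334) and 6.44% on chromosome 16 (27 of 419). The median replicate 2 control level of all core promoters was 8.74 on chromosomes 3 and 10 and 8.33 on chromosome 20. It did not follow the share throughout, since it was highest on chromosome 17, at 8.86, with 14.0% members, and 8.54 on chromosome 4, with 18.1%. DNA copy number was not analysed here, and its part in these shares was not tested.

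**Figure D5:**
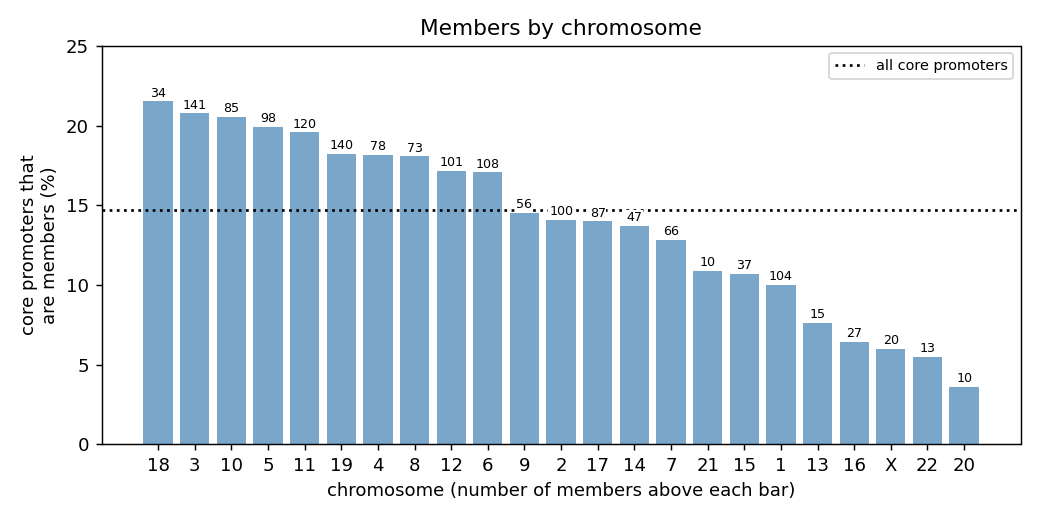
Share of core promoters that are members on each chromosome (y axis, %; chromosomes on the x axis in order of the share, number of members above each bar), with a dotted line at the share over all core promoters, 14.7%. The shares run from 21.5% on chromosome 18 to 3.60% on chromosome 20.

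On a finer scale, members gathered in some stretches of the genome. Of 252 bins of 10 Mb with at least 15 core promoters, 12 had 40% or more members and 20 had none. The 12 dense bins held 131 members among 263 core promoters (49.8%), while the other 240 bins had 13.5%. The densest was chromosome 5 from 40 to 50 Mb, where 17 of 22 core promoters were members, RIMOC1, ZNF131, PTGER4, HMGCS1 and FBXO4 among them. The next, also on chromosome 5, from 10 to 20 Mb, had 9 of 15, among them MARCHF6, OTULIN and ATPSCKMT. Peaks of these 12 bins that are not core promoters had a median level of 6.52, beside 6.39 in the other bins. The replicate 2 peaks there that no member met had a median control level of 7.74, beside 8.08. Leaving out the members removes a larger part of the core promoters in the dense bins, so the last 2 values do not compare like sets of peaks. CCAAT was in 40.5% of the 121 member windows of the dense bins and in 54.7% of the 1180 elsewhere. Over all core promoters of level 8 or more with a window, members included, the shares were 39.0% and 46%. The bins were chosen by the share of members, so these values describe them.

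The largest fold changes of members sat on a few chromosomes. The 243 members on chromosomes 2, 9 and 17 had medians of -1.19 in the authors' deposited annotated table and -1.58 in the authors' deposited replicate 2 table. In the same order the 73 on chromosome 8 had -0.86 and -1.08, and the 1254 on the others had -0.89 and -1.29. The others were not uniform, with -0.60 and -1.10 on chromosome 21 (10 members), -0.75 and -1.31 on chromosome 19 and -1.07 and -1.29 on chromosome 13. No criterion was given for the chromosomes set apart, so these values only describe them. Of the 8 lowest members of the annotated table, 7 lay on chromosomes 2, 9 and 17, and of the 8 lowest of the replicate 2 table all 8 did, while 15.5% of members lie there.

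The lowest member in the authors' deposited annotated table was SECISBP2, which acts in selenoprotein synthesis, at -2.06, with replicate 2 levels of 8.12 in the knockout and 9.71 in the control. CFAP36 (-2.05), the deubiquitinase gene USP34 (-1.98), GIPC1 (-1.98), LOC101928438 (-1.90), LAPTM4A (-1.89), ADI1 (-1.88) and HNRNPLL (-1.88) followed in the authors' deposited annotated table, and all but GIPC1 lie on the 3 chromosomes. The highest in the authors' deposited annotated table were ZNF7 (-0.21), GART (-0.22), an enzyme of purine synthesis, RNU12 (-0.23), DENND3 (-0.26), CBR3-AS1 (-0.27), FBXL12 and H2AC8 (-0.29 each) and AGAP11 (-0.30). Their values in the authors' deposited replicate 2 table were -1.03, -1.06, -1.56, -0.88, -0.92, -1.18, -1.49 and -0.98 in that order. So the members at the upper end of the annotated table lay on both sides of the members' median of -1.31 in the authors' deposited replicate 2 table.

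The lowest member in the authors' deposited replicate 2 table was AKNA, a microtubule organiser gene, at -2.12, from levels of 6.07 in the knockout and 8.18 in the control library. DCAF7 (-2.08), IMMT (-2.07), which shapes mitochondrial cristae, KAT7 and PTRH2 (-2.06 each), ERP44 (-2.05), DDX42 (-2.02) and the hedgehog receptor gene PTCH1 (-2.01) came next in the authors' deposited replicate 2 table. Apart from EEF1A1, the highest in the authors' deposited replicate 2 table included TSNARE1 (-0.16), PAIP1 and TRAPPC9 (-0.63 each), ATPSCKMT (-0.68), CHRAC1 (-0.70) and CDH23 (-0.71). TSNARE1, TRAPPC9 and CHRAC1 lie on chromosome 8. Counting error alone spans -2.50 to -1.74 around the fold change of AKNA in that table.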

How the data were processed

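ATAC-seq was run on 4 Kasumi-1 libraries, 2 per group. Build hg38 and, in no stated order, ChIPseeker, MACS2 2.1.2, Bowtie2, deepTools, cutadapt and SAMtools are listed per the submitters' processing notes. Read shifting for the transposase cut, duplicate and mitochondrial read removal and the scaling of libraries were not given in the sources used here. There are 2 deposited tables of peaks. Per the file headers, that of replicate 2 gives log2 levels of the knockout and control libraries numbered 2, a log2 fold change, a p-value and an adjusted p-value. In the deposited annotated table the columns of the mean log2 level, log2 fold change and p-value have no names. They were identified by their order and range, and the libraries behind them are not named. The comparison is labelled treated against control, and treated was taken to be the SETD8 knockout. The 2 further columns of the annotated table, which may hold single libraries, were not used.

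Members were joined to the replicate 2 peak with the largest overlap, at least 1 bp. Deposited levels of the replicate 2 table are whole reads in the knockout library and reads multiplied by 0.918 in the control (170 of 170 low control values whole within 0.005 on the log2 scale). Symbols and promoter windows are those of RefSeq GRCh38.p14, whose primary coordinates are those of hg38. A window was taken by overlap with the peak, that of the annotated gene first, then the nearest start. The planned comparison of sequences with all core promoters was replaced by one with levels of 8 to 9, for want of windows. Python 3.11.15 with pandas 2.3.3, numpy 2.4.6, scipy 1.17.1 and matplotlib 3.10.9 was used. The join, motif and interval functions were tested on simulated data. No test of the authors was repeated: the design gives description only, and the authors' adjusted p-values are printed as deposited.

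The members and all lists were chosen with earlier results of these data known. The rule named, 1 peak per gene, the 12 members of highest level, the 8 lowest and 8 highest by fold change in each table, those next to the cut, the 3 highest members of each of 28 gene lists and KMT5A. Some members picked by it are not reported here. Other names were chosen after values were seen, as members of a list or bin. Alternatives covered the level cut, start-site overlap, fold size, centring, 1 peak per gene, chromosomes, overlap share, window length and the adjusted p.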

Additional observations from a re-analysis of the deposited data

How the results depend on the processing

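The members' median fold change stayed below 0 under every alternative run, but sizes moved. For the subsets of members used, the sign could not have come out otherwise. All 1570 members were below 0 in the annotated table and 1556 of 1557 in the replicate 2 table. The annotated-table median of -0.93 was -0.89 without chromosomes 2, 8, 9 and 17 and -0.06 when centred on the table median. The replicate 2 median of -1.31 was -1.33 at a level of 10 or more and -0.08 when centred. The share lower by 1 or more in the annotated table, 40.8%, was 44.8% at a level of 8.5 or more, 34.9% without those chromosomes, 92.2% when 1.5-fold counted as lower, 2.80% when a log2 size of 1.5 did and 0.510% when centred. In the replicate 2 table, 93.6% became 91.2%, 94.8% and 95.1% at levels of 8.5, 9.5 and 10 or more, 99.8% and 20.7% under the same 2 fold sizes, and 0% when centred. Counts of lower members therefore rest on the authors' scaling. With the window of 100 bases before to 50 after the start, CCAAT was in 35.7% of member windows in place of 53.4%, and the difference from levels of 8 to 9 was 7.02 in place of 11.8 percentage points.

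Centred on the table median, the sign turned for core promoters of level under 6 (0.40 and 0.16 in the annotated and the replicate 2 table), of 6 to 7 (0.06 and 0.09), and for members of 11 and above in the annotated table (0.08). Of the named members, 62 of 111 lay below the median of the annotated table and 67 of 106 below that of the replicate 2 table. As deposited, all 111 and 105 of the 106 were below 0, so the sign of a single name depends on centring. Leaving out the 5 mitochondrial-like peaks was chosen after seeing the data and left the annotated-table median of all members at -0.93. These peaks have no replicate 2 value, so the -1.31 there could not change. The annotated-table median of members of 11 and above went from -0.79 to -0.865, beside -0.87 over all peaks. Counts past an adjusted p of 0.1 were 0 in both tables.

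No replicate was left out, since the replicate 2 table has 1 library per group and the libraries of the annotated table are not named. No paired analysis was possible because only the 2 replicate 2 libraries have columns named for them. Depth limits single members: at the median member counting error spans 0.187 on either side of the replicate 2 fold change at 95%. The SD between members was 0.238, which is not a 95% span, so these values are not on the same scale.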
